A study of Mus musculus with 12 samples.

Results

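The genes described here are 43 mouse genes of DNA replication, taken in 4 roles: origin licensing and helicase assembly (16 genes), polymerases, clamp loading and the replication fork (19 genes), nucleotide supply (6 genes) and chromatin assembly (2 genes). Their probe sets were those of the value table that the array's annotation maps to 1 of these genes only. That gave 92 of the table's 45101 probe sets for 42 genes of the 18194 that have such a probe set. Chaf1a was not analysed here. Of the 92 probe sets 78 passed the filter on low signal, for 41 genes, and each gene is described by the brightest of its kept probe sets. Orc1 has 2 probe sets and neither passed the filter, so it has no value below.

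The study asked how the zinc finger protein ZNF335, whose mouse gene is Zfp335, bears on stem cell proliferation and neuronal differentiation. C57BL/6 mouse cells were sorted by flow cytometry after a knockdown at E14.5 (E for embryonic day), and their RNA was read on 12 Affymetrix Mouse430_2 arrays in 4 groups of 3. The groups were ZNF335 knockdown at 5 days, control knockdown at 5 days, ZNF335 knockdown at 1 day and control knockdown at 1 day. The sample titles call the reagent an SiRNA and the design text calls it an ShRNA, and all 12 samples are labelled with both E15.5 and P0, the day of birth. Whether the 3 samples of each group stem from separate animals is not stated, and if they do not, the p-values below cover technical spread alone. The sources used here do not give how the cells were labelled for sorting.

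Before a cell divides it must copy its genome once. The origin recognition complex, Cdc6 and Cdt1 load the ring of Mcm2 to Mcm7 on DNA. Cdc45 and the GINS complex turn that ring into an active helicase. Polymerases alpha, delta and epsilon copy the opened strands, and Rfc loads the Pcna clamp there. In the embryonic cortex this machinery is known from the ventricular and subventricular zones, where radial glia and intermediate progenitors divide, and it is shut down as their daughters become neurons. E2F factors, which act at the entry to S phase, and NF-Y, which binds CCAAT boxes, are known to act at many promoters of these genes.

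Because E2F and NF-Y are known from this gene group, 160 bases before the transcription start are shown for Mcm5, which had both kinds of motif and was among the genes that changed between the time points, for Rpa2 and Rrm1, which changed and had CCAAT alone, and for Mcm6, which had 3 E2F words. They come from the RefSeq promoter table of build GRCm38.p6, at chr8:75109349-75109508 (plus strand) for Mcm5, chr4:132768200-132768359 (plus strand) for Rpa2, chr7:102441535-102441694 (plus strand) for Rrm1 and chr1:128359706-128359865 (minus strand) for Mcm6, each written 5′ to 3′ on the gene's strand and ending at the base before the start. Capitals mark an E2F word (TTTCCCGC, TTTCGCGC, TTTGCCGC or TTTGGCGC) or a CCAAT box on either strand, where neighbouring words may overlap.
Mcm5: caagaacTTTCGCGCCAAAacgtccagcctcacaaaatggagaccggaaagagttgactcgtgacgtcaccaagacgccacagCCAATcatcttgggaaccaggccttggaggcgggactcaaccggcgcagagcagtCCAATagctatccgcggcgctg
Rpa2: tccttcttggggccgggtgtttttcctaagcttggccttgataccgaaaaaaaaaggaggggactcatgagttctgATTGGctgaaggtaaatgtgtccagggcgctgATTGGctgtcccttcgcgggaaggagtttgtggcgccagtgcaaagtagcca
Rrm1: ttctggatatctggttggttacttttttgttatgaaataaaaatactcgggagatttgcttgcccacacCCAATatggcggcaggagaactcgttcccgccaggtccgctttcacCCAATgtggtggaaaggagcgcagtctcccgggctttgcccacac
Mcm6: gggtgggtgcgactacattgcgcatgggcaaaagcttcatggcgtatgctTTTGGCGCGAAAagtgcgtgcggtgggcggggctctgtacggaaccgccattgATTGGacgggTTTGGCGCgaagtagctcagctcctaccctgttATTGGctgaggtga
Within 250 bases before the start, on both strands, an E2F word was found in 8 of the 37 listed genes that have an entry in that table (21.6%), against 517 of 27025 genes in all (1.91%). The 8 were Cdc6, Gins3, Mcm5, Mcm6, Mcm7, Orc1, Pola1 and Rfc3. A CCAAT box was found in 22 of the 37 (59.5%), against 34.5% of all genes. Of the 7 genes past the threshold in both time comparisons described below, 1 had an E2F word (Mcm5) and 4 had a CCAAT box. These are matches of letters and not measured binding sites.

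The arrays were uneven, and several features of them touch the results. The 1-day arrays fell into 2 sets that cross the groups: in knockdowns 2 and 3 and control 2 the hybridisation controls, spiked-in RNAs of set amount, averaged 12.67 to 12.82 (log2), while in knockdown 1 and in controls 1 and 3 they averaged 10.81 to 11.81. Correlations across probe sets were 0.975 to 0.978 within the first set, 0.923 to 0.989 within the second and 0.597 to 0.775 between them. Among the 5-day arrays, knockdown 2 had an Actb 3′ to 5′ signal ratio of 8.76, against 1.51 to 1.93 in the other 5. In the 6 arrays of 1 day this ratio was 2.09 to 2.91, above those 5, so it also differed by time point. For Gapdh the ratio overlapped, with 1.94 to 2.22 at 1 day, 1.65 to 2.01 in those 5 and 3.90 in 5-day knockdown 2. One scanner read the 3 knockdowns and control 1 of 5 days, and another scanner read controls 2 and 3, with the same split of stations. The scanner of controls 2 and 3 also read all arrays of 1 day. At 1 day all 3 knockdowns were run on 1 fluidics station and all 3 controls on another, so station and knockdown cannot be told apart there. The 1-day arrays share a chip lot that no 5-day array has, and no station was used at both time points, so time cannot be told apart from chip lot or station. In the knockdowns each time point also had its own scanner, so time and scanner cannot be told apart there. In the controls 5-day control 1 alone was read on the other scanner. The description field of the 6 samples of 5 days names the opposite group to their titles, and the titles were followed. Zfp335, with 1 probe set, did not settle this. Its deposited signal was 103, 34.3 and 151 in the 5-day knockdowns against 109, 150 and 179 in the 5-day controls, and 136, 53.7 and 41.0 in the 1-day knockdowns against 139, 46.1 and 127 in the 1-day controls. Its log2 fold change was -0.64 at both time points, with limma 95% intervals of -2.25 to 0.98 at 5 days and -2.26 to 0.97 at 1 day.

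The values below are log2(intensity + 16) after quantile normalization, which gives all 12 arrays the same distribution, so a change between time points is a change relative to the other genes of the array. Fold changes on this scale understate the change of dim probe sets. The threshold is an adjusted p of 0.05 in a limma fit of all 12 arrays, over all 27022 kept probe sets.

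**Figure D1:**
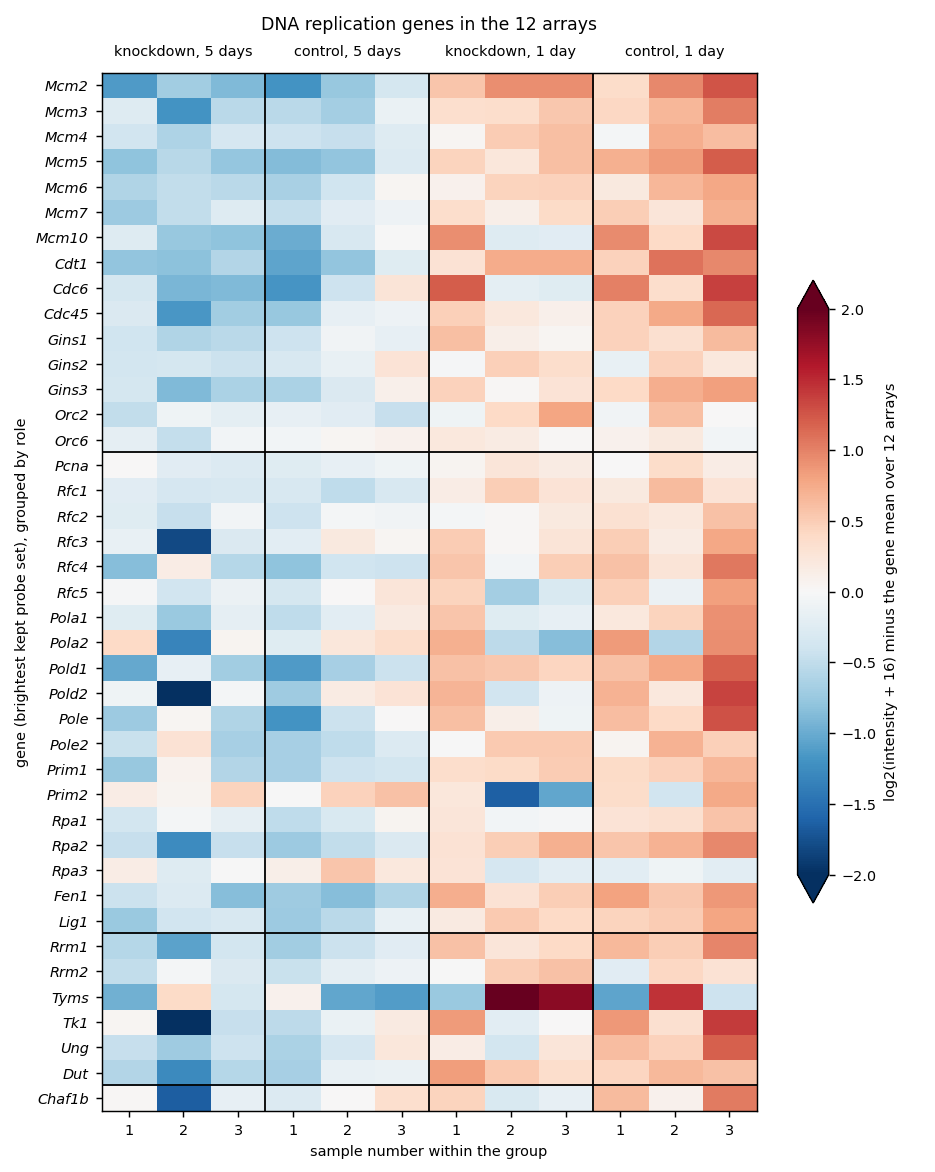
Level of each of the 41 replication genes in each of the 12 arrays, as log2(intensity + 16) after quantile normalization minus the gene's mean over the arrays (colour, clipped at 2 either way); rows are genes by role and columns are the 3 samples of each group. Most rows are blue in the 6 arrays of 5 days and red in those of 1 day, a direction that holds relative to the other genes of the array and turns for most genes when the arrays are not normalized.

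The largest difference lay between the time points. In the knockdowns 38 of 41 replication genes were lower at 5 days than at 1 day, with a median log2 fold change of -0.78 beside 0.21 over all 12263 genes. In the controls 39 of 41 were lower, with a median of -0.86 beside 0.063 over all genes. Past the threshold and lower were 8 genes in the knockdowns (background 1.93% of probe sets) and 8 in the controls (background 1.25%), and none was higher. The 7 called in both were Mcm2, Mcm5, Cdt1, Pold1, Rpa2, Fen1 and Rrm1, Dut was called in the knockdowns alone and Lig1 in the controls alone. Whether either of these differs between knockdown and control was tested as the difference of the knockdown effects, and neither passed. Of the 78 kept probe sets of the replication genes, 11 were past the threshold as lower in the knockdowns and 10 in the controls. In the controls these were the brightest ones of the 8 called genes and second ones of Prim1 and Rfc4. No further probe set of a called gene passed there. The brightest probe sets of Mcm2, Mcm5, Pold1 and Fen1 are shared-sequence ones, which can read related transcripts. With all kept probe sets of a gene averaged, Cdt1 alone of the 7 passed in both arms. Shares of all probe sets that met a criterion in both comparisons were not counted, here or below. The 5-day and 1-day values did not overlap, with the 5-day ones lower, for 27 of 41 genes in the knockdowns (background 9.43%) and 30 of 41 in the controls (background 12.7%), 23 of them in both. No gene was higher without overlap in the knockdowns, and 1 was in the controls (background 17.1%), Rpa3.

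This direction is relative. Without normalization between arrays, the median of all genes was itself 1.19 higher at 5 days in the knockdowns and 1.12 higher in the controls on the log2 scale. The replication genes then had a median of 0.36 in both, and only 10 of 41 in the knockdowns and 11 of 41 in the controls lay below 0. Past the threshold were then 13 as higher and 0 as lower in the knockdowns and 11 as higher and 1 as lower, Mcm10, in the controls, in place of 0 as higher and 8 as lower in each. Relative to the median of all genes, 38 of 41 were lower in both, by a median of -0.83 in the knockdowns and -0.76 in the controls. Scaling the arrays to the same median gave the same picture, with 38 of 41 below the median of all genes in both and 13 and 15 of 41 below 0 in the knockdowns and the controls, and with 5 and 4 genes past the threshold, all as higher. Under both scalings far more of all probe sets passed than after quantile normalization, with the counts given at the end. The calls as higher are therefore not particular to the replication genes. Which scale is right was not tested, and fewer dividing cells cannot be told apart here from less of these RNAs per cell.

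**Figure D2:**
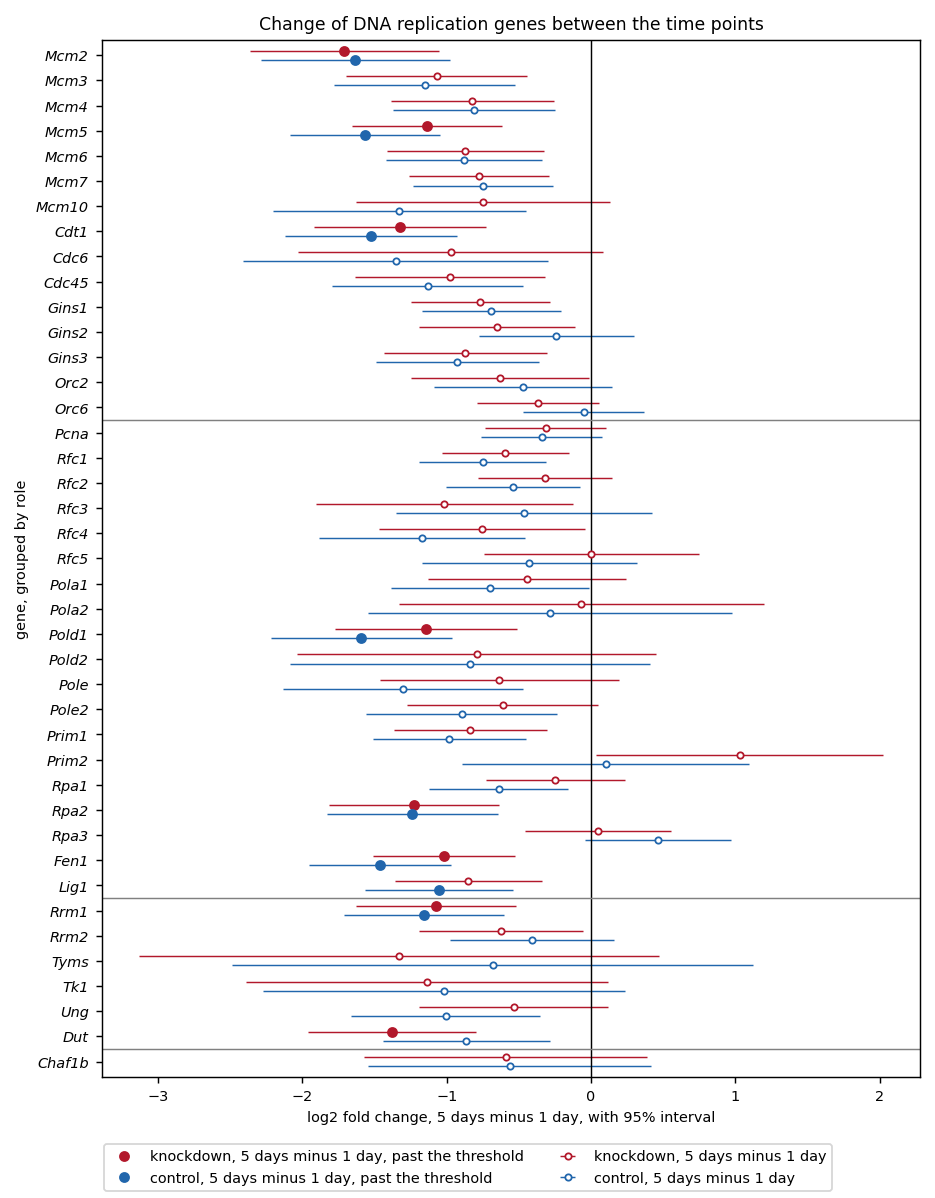
Log2 fold change of each replication gene between 5 days and 1 day, in knockdowns (red) and controls (blue), with 95% intervals of the limma fit on quantile normalized values; filled points passed the threshold. Nearly all points lie left of 0, where they are lower at 5 days relative to the other genes; on unnormalized values most lie right of 0 but still below the median of all genes.

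Among the helicase and origin genes, all 15 measured were lower at 5 days, with a median of -0.87 in the knockdowns and -0.93 in the controls on the normalized scale, and 3 were past the threshold in each. Mcm2, a subunit of the helicase ring, read 8.56, 8.995 and 8.80 in the 5-day knockdowns against 10.24, 10.61 and 10.62 in the 1-day knockdowns, and 8.50, 8.92 and 9.33 in the 5-day controls against 10.06, 10.65 and 10.95 in the 1-day controls. All 6 arrays of 5 days lay below all 6 of 1 day. The log2 fold change of Mcm2 was -1.71 in the knockdowns (SE 0.30, limma adjusted p = 0.0119) and -1.64 in the controls (SE 0.30, adjusted p = 0.0166), which is 3.27-fold and 3.11-fold lower. Mcm5, another ring subunit, read 8.76, 9.001 and 8.79 at 5 days against 10.01, 9.78 and 10.16 at 1 day in the knockdowns, and 8.70, 8.77 and 9.29 at 5 days against 10.27, 10.42 and 10.78 at 1 day in the controls. Again no 5-day value reached the lowest 1-day value. Its log2 fold change was -1.14 in the knockdowns (SE 0.24, limma adjusted p = 0.0244) and -1.57 in the controls (SE 0.24, adjusted p = 0.00653), and in the controls it stayed past the threshold with any 1 array left out (limma adjusted p 0.0071 to 0.0478). Cdt1, which delivers the ring to the origin, read 8.74, 8.72 and 8.94 at 5 days against 9.83, 10.27 and 10.28 at 1 day in the knockdowns, and 8.49, 8.75 and 9.30 at 5 days against 9.99, 10.62 and 10.49 at 1 day in the controls. The 5-day values of Cdt1 were lower throughout, with a log2 fold change of -1.32 in the knockdowns (SE 0.27, limma adjusted p = 0.0225) and -1.53 in the controls (SE 0.27, adjusted p = 0.0150).

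The other ring subunits had lower values at 5 days too, without passing. Mcm3 read 9.33, 8.39 and 9.05 at 5 days against 9.92, 9.94 and 10.12 at 1 day in the knockdowns, and 9.06, 8.91 and 9.45 at 5 days against 10.01, 10.25 and 10.61 at 1 day in the controls, with a log2 fold change of -1.07 in the knockdowns (SE 0.28, limma adjusted p = 0.0532) and -1.15 in the controls (SE 0.28, adjusted p = 0.0570). Mcm4 read 10.39, 10.16 and 10.44 at 5 days against 10.81, 11.28 and 11.38 at 1 day in the knockdowns, and 10.35, 10.31 and 10.52 at 5 days against 10.73, 11.50 and 11.39 at 1 day in the controls. This is a change of -0.82 in the knockdowns and -0.81 in the controls. These groups did not overlap either. Mcm6, whose promoter is shown above, read 9.58, 9.69 and 9.64 at 5 days against 10.26, 10.62 and 10.64 at 1 day in the knockdowns, and 9.53, 9.78 and 10.22 at 5 days against 10.38, 10.85 and 10.95 at 1 day in the controls. For Mcm6 the change was -0.87 in the knockdowns and -0.88 in the controls. Mcm7 read 10.24, 10.47 and 10.70 at 5 days against 11.31, 11.07 and 11.35 at 1 day in the knockdowns, and 10.48, 10.74 and 10.86 at 5 days against 11.46, 11.20 and 11.67 at 1 day in the controls. The log2 fold change came to -0.78 in the knockdowns and -0.75 in the controls. Every 5-day value of Mcm6 and Mcm7 lay below every 1-day value of its own gene. Mcm10, which helps to start the helicase, read 7.27, 6.77 and 6.72 at 5 days against 8.45, 7.26 and 7.30 at 1 day in the knockdowns, and 6.54, 7.20 and 7.52 at 5 days against 8.48, 7.93 and 8.85 at 1 day in the controls, a change of -0.75 in the knockdowns and -1.33 in the controls. Its 1-day values were split, with knockdowns 2 and 3 near the upper 5-day values.

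Of the loading and activating factors, Cdc6 read 7.23, 6.67 and 6.70 at 5 days against 8.79, 7.38 and 7.34 at 1 day in the knockdowns, and 6.39, 7.17 and 7.83 at 5 days against 8.58, 7.93 and 8.94 at 1 day in the controls, a change of -0.97 in the knockdowns and -1.35 in the controls. Like Mcm10 it was low in 1-day knockdowns 2 and 3, both of the set with strong hybridisation controls. Cdc45, which joins the ring in the active helicase, read 8.01, 7.13 and 7.61 at 5 days against 8.78, 8.51 and 8.39 at 1 day in the knockdowns, and 7.54, 8.14 and 8.20 at 5 days against 8.76, 9.06 and 9.45 at 1 day in the controls. Between the time points the difference of Cdc45 was -0.98 in the knockdowns and -1.13 in the controls. The GINS subunits bind beside it. Gins1 read 9.35, 9.14 and 9.21 at 5 days against 10.35, 9.86 and 9.79 at 1 day in the knockdowns, and 9.32, 9.68 and 9.59 at 5 days against 10.21, 10.07 and 10.38 at 1 day in the controls, a change of -0.77 in the knockdowns and -0.69 in the controls. Gins2 read 8.88, 8.89 and 8.82 at 5 days against 9.22, 9.73 and 9.60 at 1 day in the knockdowns, and 8.93, 9.10 and 9.53 at 5 days against 9.11, 9.70 and 9.46 at 1 day in the controls, a change of -0.65 in the knockdowns and -0.24 in the controls. In Gins2 the controls of the 2 time points overlapped, through 5-day control 3. Gins3 read 7.44, 6.92 and 7.16 at 5 days against 8.25, 7.81 and 8.07 at 1 day in the knockdowns, and 7.15, 7.50 and 7.89 at 5 days against 8.19, 8.52 and 8.61 at 1 day in the controls, a change of -0.87 in the knockdowns and -0.93 in the controls. Its groups did not overlap.

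The origin recognition complex marks the sites where the ring is loaded. Differences between genes were not tested, here or below. Orc2 read 8.78, 9.18 and 9.07 at 5 days against 9.18, 9.68 and 10.06 at 1 day in the knockdowns, and 9.10, 9.04 and 8.80 at 5 days against 9.21, 9.88 and 9.28 at 1 day in the controls, a change of -0.63 in the knockdowns and -0.47 in the controls. Orc6 read 9.80, 9.49 and 9.92 at 5 days against 10.18, 10.14 and 9.998 at 1 day in the knockdowns, and 9.92, 10.01 and 10.06 at 5 days against 10.06, 10.16 and 9.92 at 1 day in the controls, a change of -0.37 in the knockdowns and -0.051 in the controls. The controls of the 2 time points overlapped in Orc6, and its change in the controls had a 95% interval of -0.47 to 0.37.

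Among the polymerase and fork genes, 16 of 19 were lower at 5 days in the knockdowns (median -0.61, 3 past the threshold) and 17 of 19 in the controls (median -0.75, 4 past the threshold). Pold1, the catalytic subunit of polymerase delta, read 8.33, 9.20 and 8.66 at 5 days against 9.95, 9.90 and 9.79 at 1 day in the knockdowns, and 8.23, 8.69 and 8.93 at 5 days against 9.94, 10.13 and 10.55 at 1 day in the controls. The log2 fold change was -1.15 in the knockdowns (SE 0.28, limma adjusted p = 0.0439) and -1.59 in the controls (SE 0.28, adjusted p = 0.0155), with no overlap. Rpa2, a subunit of the complex that covers single-stranded DNA, read 9.63, 8.83 and 9.63 at 5 days against 10.39, 10.58 and 10.80 at 1 day in the knockdowns, and 9.36, 9.59 and 9.80 at 5 days against 10.64, 10.78 and 11.05 at 1 day in the controls. Of the 5-day arrays knockdown 2 was the lowest, and the change was -1.23 in the knockdowns (SE 0.27, limma adjusted p = 0.0288) and -1.24 in the controls (SE 0.27, adjusted p = 0.0354). Fen1, the nuclease that trims the ends of lagging-strand pieces, read 10.54, 10.70 and 10.13 at 5 days against 11.70, 11.26 and 11.47 at 1 day in the knockdowns, and 10.26, 10.13 and 10.38 at 5 days against 11.79, 11.52 and 11.85 at 1 day in the controls. Its change was -1.02 in the knockdowns (SE 0.22, limma adjusted p = 0.0292) and -1.46 in the controls (SE 0.22, adjusted p = 0.00693), and all 5-day values were lower. Lig1, the ligase that joins those pieces, read 9.15, 9.52 and 9.57 at 5 days against 10.07, 10.42 and 10.29 at 1 day in the knockdowns, and 9.17, 9.35 and 9.75 at 5 days against 10.34, 10.39 and 10.69 at 1 day in the controls. The groups did not overlap in Lig1, with a change of -0.85 in the knockdowns (SE 0.23, limma adjusted p = 0.0570) and -1.05 in the controls (SE 0.23, adjusted p = 0.0372), so that the 2 comparisons fell on either side of the threshold. The difference between them was 0.20 (95% interval -0.52 to 0.93).

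Pole, the catalytic subunit of polymerase epsilon, read 7.71, 8.48 and 7.84 at 5 days against 9.04, 8.55 and 8.35 at 1 day in the knockdowns, and 7.24, 8.0002 and 8.45 at 5 days against 9.05, 8.84 and 9.71 at 1 day in the controls, a change of -0.64 in the knockdowns and -1.30 in the controls. Its knockdowns overlapped, since 5-day knockdown 2 lay above 1-day knockdown 3. Pole2, its accessory subunit, read 8.08, 8.82 and 7.86 at 5 days against 8.51, 9.04 and 9.04 at 1 day in the knockdowns, and 7.85, 8.003 and 8.25 at 5 days against 8.57, 9.21 and 9.0001 at 1 day in the controls, a change of -0.61 in the knockdowns and -0.90 in the controls. There too 5-day knockdown 2 was the highest of its group. Pola1, the catalytic subunit of polymerase alpha, read 8.17, 7.67 and 8.23 at 5 days against 8.97, 8.18 and 8.25 at 1 day in the knockdowns, and 7.90, 8.20 and 8.60 at 5 days against 8.62, 8.85 and 9.33 at 1 day in the controls. This makes a difference of -0.45 in the knockdowns and -0.70 in the controls. Pola2, its accessory subunit, read 7.64, 5.92 and 7.30 at 5 days against 7.94, 6.72 and 6.39 at 1 day in the knockdowns, and 6.99, 7.47 and 7.59 at 5 days against 8.09, 6.65 and 8.16 at 1 day in the controls, a change of -0.067 in the knockdowns and -0.28 in the controls. Both time points overlapped in Pola2, and 5-day knockdown 2 was far below the other 5-day arrays. Pold2, the accessory subunit of polymerase delta, read 8.21, 6.24 and 8.26 at 5 days against 8.98, 7.92 and 8.20 at 1 day in the knockdowns, and 7.59, 8.47 and 8.58 at 5 days against 8.99, 8.52 and 9.65 at 1 day in the controls. The change of Pold2 was -0.79 in the knockdowns and -0.84 in the controls. Here as well 5-day knockdown 2 stood lowest by a wide margin and the groups overlapped.

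The primase subunits make the RNA primers. Prim1 read 9.94, 10.77 and 10.12 at 5 days against 11.05, 11.08 and 11.20 at 1 day in the knockdowns, and 10.03, 10.28 and 10.34 at 5 days against 11.08, 11.16 and 11.36 at 1 day in the controls, a change of -0.84 in the knockdowns and -0.98 in the controls. A second probe set of Prim1 was past the threshold in both comparisons, at -1.13 and -0.99 in knockdowns and controls. Prim2 read 9.02, 8.92 and 9.31 at 5 days against 9.08, 7.24 and 7.83 at 1 day in the knockdowns, and 8.86, 9.33 and 9.45 at 5 days against 9.24, 8.48 and 9.62 at 1 day in the controls, a change of 1.03 in the knockdowns and 0.10 in the controls. Its low values were those of the 3 1-day arrays with strong hybridisation controls, so that the higher level at 5 days in the knockdowns (1.03, unadjusted p = 0.0436, adjusted p = 0.185, limma) rested on 1-day knockdowns 2 and 3. With the 1-day arrays of weak hybridisation controls alone it was -0.0037.

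Pcna, the sliding clamp, read 11.74, 11.49 and 11.45 at 5 days against 11.77, 11.96 and 11.88 at 1 day in the knockdowns, and 11.47, 11.56 and 11.64 at 5 days against 11.73, 12.09 and 11.88 at 1 day in the controls, a change of -0.31 in the knockdowns and -0.34 in the controls. Its 5-day values were lower without overlap, by less than most other members. The clamp loader has 5 subunits. Rfc1 read 9.96, 9.86 and 9.87 at 5 days against 10.33, 10.69 and 10.46 at 1 day in the knockdowns, and 9.87, 9.68 and 9.87 at 5 days against 10.39, 10.83 and 10.46 at 1 day in the controls, a change of -0.60 in the knockdowns and -0.75 in the controls. Rfc2 read 10.10, 9.88 and 10.29 at 5 days against 10.32, 10.37 and 10.55 at 1 day in the knockdowns, and 9.93, 10.31 and 10.28 at 5 days against 10.65, 10.55 and 10.94 at 1 day in the controls, a change of -0.32 in the knockdowns and -0.54 in the controls. Neither overlapped between the time points. Rfc3 read 8.91, 7.25 and 8.77 at 5 days against 9.57, 9.08 and 9.32 at 1 day in the knockdowns, and 8.85, 9.26 and 9.10 at 5 days against 9.55, 9.22 and 9.83 at 1 day in the controls, a change of -1.02 in the knockdowns and -0.46 in the controls. The controls of Rfc3 overlapped, and 5-day knockdown 2 was the lowest array by more than 1 log2 unit. Rfc4 read 8.81, 9.82 and 9.10 at 5 days against 10.22, 9.60 and 10.16 at 1 day in the knockdowns, and 8.85, 9.27 and 9.25 at 5 days against 10.24, 9.93 and 10.71 at 1 day in the controls, a change of -0.75 in the knockdowns and -1.17 in the controls. A second probe set of Rfc4 was past the threshold in both comparisons, at -1.32 and -1.29 in knockdowns and controls. Rfc5 read 8.56, 8.20 and 8.46 at 5 days against 9.03, 7.90 and 8.29 at 1 day in the knockdowns, and 8.23, 8.59 and 8.83 at 5 days against 9.06, 8.47 and 9.40 at 1 day in the controls, a change of 0.0026 in the knockdowns and -0.43 in the controls. Its groups overlapped in both.

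The single-strand binding complex has 2 subunits beside Rpa2. Rpa1, the large subunit, read 9.91, 10.26 and 10.11 at 5 days against 10.52, 10.24 and 10.27 at 1 day in the knockdowns, and 9.78, 9.99 and 10.34 at 5 days against 10.56, 10.60 and 10.87 at 1 day in the controls, a change of -0.25 in the knockdowns and -0.64 in the controls. Rpa3, the small subunit, read 10.31, 9.91 and 10.15 at 5 days against 10.44, 9.83 and 9.96 at 1 day in the knockdowns, and 10.28, 10.72 and 10.37 at 5 days against 9.95, 10.07 and 9.96 at 1 day in the controls, a change of 0.047 in the knockdowns and 0.47 in the controls. In the controls every 5-day value of Rpa3 was above every 1-day value, with a limma adjusted p of 0.340. The 3 proteins work as 1 complex, and these are levels of RNA from 1 probe set each.

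All 6 genes of nucleotide supply were lower at 5 days, with a median of -1.11 in the knockdowns and -0.94 in the controls on the normalized scale. Rrm1, the large subunit of ribonucleotide reductase, read 9.77, 9.26 and 9.97 at 5 days against 10.92, 10.57 and 10.73 at 1 day in the knockdowns, and 9.63, 9.91 and 10.11 at 5 days against 10.99, 10.82 and 11.31 at 1 day in the controls. Its change was -1.07 in the knockdowns (SE 0.25, limma adjusted p = 0.0360) and -1.15 in the controls (SE 0.25, adjusted p = 0.0360), with no overlap. Rrm2, the small subunit that is known to be the limiting one in S phase, read 11.34, 11.79 and 11.55 at 5 days against 11.82, 12.32 and 12.41 at 1 day in the knockdowns, and 11.38, 11.64 and 11.72 at 5 days against 11.60, 12.25 and 12.12 at 1 day in the controls. On the log2 scale it differed by -0.62 in the knockdowns and -0.41 in the controls. The controls of Rrm2 overlapped. Dut, which breaks down dUTP, read 10.11, 9.42 and 10.13 at 5 days against 11.53, 11.21 and 11.05 at 1 day in the knockdowns, and 10.03, 10.55 and 10.57 at 5 days against 11.12, 11.34 and 11.28 at 1 day in the controls. Dut was past the threshold in the knockdowns alone, with a change of -1.38 in the knockdowns (SE 0.26, limma adjusted p = 0.0174) and -0.86 in the controls (SE 0.26, adjusted p = 0.112), and the difference between them was -0.51 (95% interval -1.33 to 0.31, limma adjusted p = 1).

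Ung, which cuts uracil out of DNA, read 9.05, 8.80 and 9.10 at 5 days against 9.65, 9.15 and 9.76 at 1 day in the knockdowns, and 8.87, 9.18 and 9.73 at 5 days against 10.13, 9.97 and 10.71 at 1 day in the controls, a change of -0.53 in the knockdowns and -1.01 in the controls. No 5-day value of Ung reached a 1-day value of its own arm. Tk1, the salvage kinase for thymidine, read 8.38, 6.004 and 7.87 at 5 days against 9.19, 8.13 and 8.35 at 1 day in the knockdowns, and 7.81, 8.21 and 8.51 at 5 days against 9.21, 8.66 and 9.73 at 1 day in the controls, a change of -1.14 in the knockdowns and -1.02 in the controls. Array 2 of the 5-day knockdowns was again the lowest. Tyms, which makes thymidylate, read 6.998, 8.34 and 7.62 at 5 days against 7.22, 9.96 and 9.77 at 1 day in the knockdowns, and 8.05, 6.92 and 6.85 at 5 days against 6.91, 9.41 and 7.55 at 1 day in the controls, a change of -1.33 in the knockdowns and -0.68 in the controls. The 3 highest values of Tyms belonged to the 3 1-day arrays with strong hybridisation controls. Chaf1b, the one measured subunit of the histone chaperone CAF-1, read 7.68, 6.01 and 7.48 at 5 days against 8.10, 7.34 and 7.50 at 1 day in the knockdowns, and 7.37, 7.67 and 7.99 at 5 days against 8.29, 7.74 and 8.69 at 1 day in the controls. The fold change of Chaf1b was -0.59 in the knockdowns and -0.56 in the controls (log2). Its time points overlapped in both arms.

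**Figure D3:**
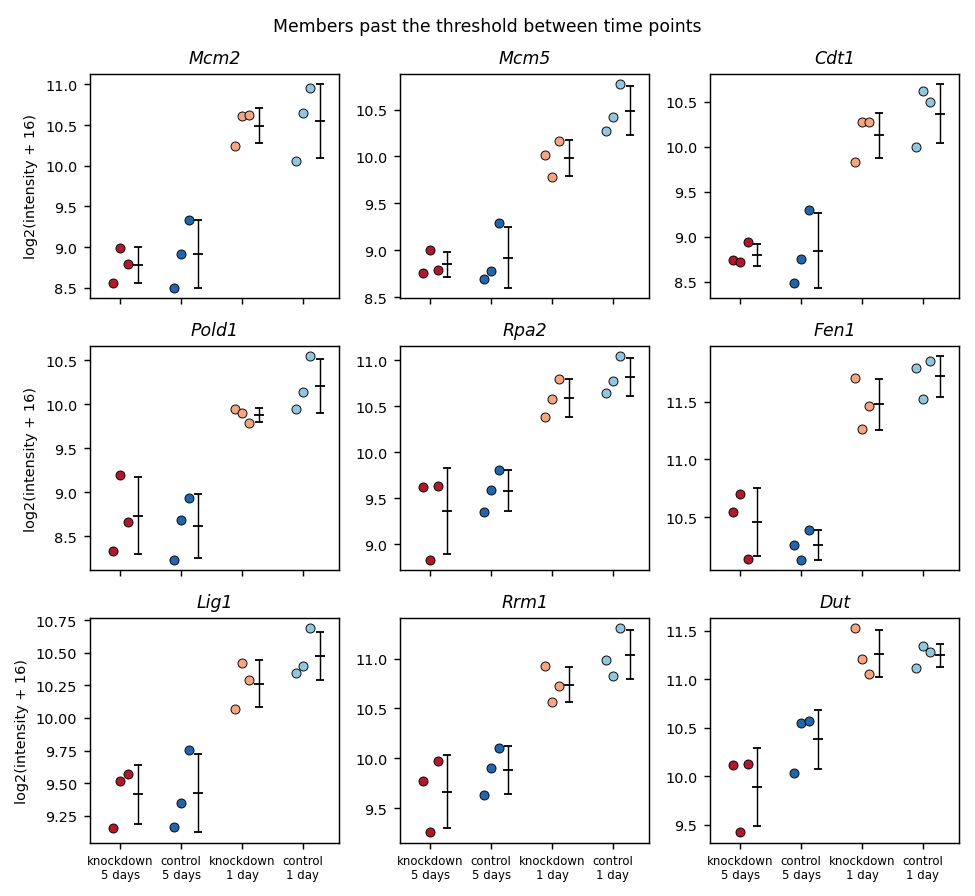
Log2(intensity + 16) after quantile normalization in each of the 12 arrays for the 9 replication genes past the threshold in at least 1 time comparison; points are samples and the bar beside them is the mean ± SD of the 3. In all 9 panels the 6 values of 5 days lie below the 6 values of 1 day, on a scale relative to the other genes of the array.

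How many genes passed depended on single arrays. With 1 array left out, 0 to 19 passed as lower in the knockdowns. There were 0 without 1-day knockdown 2 or 3, 19 without 1-day knockdown 1, 3 without 5-day knockdown 1, 2 without 5-day knockdown 3, 5 without 5-day control 1 and 4 without 5-day control 2 or 3. In the controls 1 to 12 passed, with 1 without 5-day control 2, 2 without 5-day control 1 or 1-day control 3, 3 without 1-day control 2, 5 without 5-day control 3, 1-day control 1 or 1-day knockdowns 2 or 3, and 12 without 5-day knockdown 2. Of all 27022 kept probe sets, 341 to 7727 passed in the knockdowns and 247 to 1520 in the controls in these fits, in either direction. The medians of the replication genes moved less, from -0.84 to -0.74 in the knockdowns and from -1.04 to -0.78 in the controls. With only the 1-day arrays of weak hybridisation controls, the medians were -0.98 in the knockdowns and -0.78 in the controls, and 0 and 7 genes passed. The 1-day arrays with strong hybridisation controls alone gave 20 genes as lower in the knockdowns. In that fit far more of all probe sets passed too, with the counts given at the end. The rise in calls was therefore not particular to the replication genes. Prim2 was then past the threshold as higher in the knockdowns (1.55, limma adjusted p = 0.00370), and also without 1-day knockdown 1 (adjusted p = 0.0154). With 1 lone array in an arm, that array is assumed to vary like the others.

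Other genes of replication and its control, 47 of them measured, were compared in the same way. They had a median of -0.41 in the knockdowns and -0.52 in the controls, with 35 and 37 of 47 lower. The same 6 were past the threshold in both: Gmnn, the inhibitor of Cdt1 (-1.74 in the knockdowns and -1.53 in the controls), the histone chaperone gene Asf1b (-1.07 and -1.37), Clspn, an adaptor at stalled forks (-1.001 and -1.27), the chromatin remodeller gene Hells (-1.01 and -1.13), Ccna2, the cyclin of S phase (-1.08 and -1.12), and the histone binding gene Nasp (-0.76 and -0.83). None was past it as higher. The background was 1.93% of probe sets as lower in the knockdowns and 1.25% in the controls.

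Cell type markers were compared between the same time points. Of 11 mitosis genes 11 were lower in both arms (median -1.22 each), with 7 past the threshold in the knockdowns and 5 in the controls. Of 8 markers of intermediate progenitors and newborn neurons, 8 were lower in the knockdowns (median -1.17) and 7 in the controls (median -1.02), with 3 past the threshold as lower in each. Radial glia markers, known from the other dividing cells of this tissue, were lower in 5 of 9 in both arms (medians -0.10 and -0.072). Only 1 of them was past the threshold, as higher in the knockdowns. These markers were split in direction. Without overlap, 3 were lower and 2 higher in the knockdowns, and 4 were lower and 3 higher in the controls. The summed level of the 9 was 25995 to 35547 in the 5-day knockdowns against 20968 to 31094 in the 1-day knockdowns. In the controls it was 25891 to 29080 at 5 days against 21213 to 30402 at 1 day. Neuronal markers, which bear on the label of the control samples as neurons, all passed the filter on low signal and were higher at 5 days in 6 of 8 in both arms, none past the threshold. Their summed level was 21635 to 23376 in the 5-day knockdowns against 11823 to 25304 in the 1-day knockdowns. In the controls it was 21870 to 26639 at 5 days against 14267 to 26309 at 1 day. The time points overlapped in both arms, through 1-day knockdown 1 and 1-day control 1. None of the 4 erythroid markers passed the filter. Of 4 oligodendrocyte precursor markers 2 were past the threshold as higher in each arm. Their summed level was 2327 to 4535 in the 5-day knockdowns against 320 to 769 in the 1-day knockdowns, and 3784 to 3934 in the 5-day controls against 309 to 548 in the 1-day controls. That of 10 microglia markers was 1983 to 23819 in the 5-day knockdowns against 388 to 1997 in the 1-day knockdowns, and 2564 to 14333 in the 5-day controls against 468 to 3342 in the 1-day controls. Of 9 markers of endothelium and pericytes 9 were higher at 5 days in both arms (medians 2.51 and 1.56 in knockdowns and controls), none past the threshold. Their summed level was 1779 to 19260 in the 5-day knockdowns against 1816 to 2232 in the 1-day knockdowns, and 1535 to 12807 in the 5-day controls against 1474 to 2360 in the 1-day controls. Of 5 astrocyte markers 4 were higher in the knockdowns (median 0.91, 1 past the threshold) and 5 in the controls (median 1.57, 2 past it). Their summed level was 3490 to 9203 in the 5-day knockdowns against 2944 to 5395 in the 1-day knockdowns, and 5771 to 7996 in the 5-day controls against 2776 to 5083 in the 1-day controls. Of 5 markers of meninges and fibroblasts 3 were higher in both arms (medians 0.27 and 0.030). All of these are levels or differences on the normalized scale, and their part in the values of the replication genes was not tested.

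Between knockdown and control at 5 days, 0 of 41 replication genes passed the limma test (background 0%). An unadjusted limma p below 0.05 was found for 0 of the 41, beside 7 lower and 5 higher of all 12263 genes. Lower in the knockdowns were 30 of 41, with a median log2 fold change of -0.17 beside 0.010 over all genes, of which 48.4% were lower. By role, 14 of 15 origin genes (median -0.21), 10 of 19 polymerase and fork genes (median -0.0091), 5 of 6 nucleotide genes (median -0.25) and Chaf1b were lower. Without overlap lower was 1 gene (background 1.69%), Gins2, which read 8.88, 8.89 and 8.82 in the 5-day knockdowns against 8.93, 9.10 and 9.53 in the 5-day controls. The change of Gins2 was -0.32 (SE 0.24, limma adjusted p = 1), and -0.15 without control 3.

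The largest differences at 5 days were those of Rfc3, Tk1, Pold2, Chaf1b and Dut. Rfc3 read 8.91, 7.25 and 8.77 in the 5-day knockdowns against 8.85, 9.26 and 9.10 in the 5-day controls, a difference of -0.76 (SE 0.40). Tk1 read 8.38, 6.004 and 7.87 in the 5-day knockdowns against 7.81, 8.21 and 8.51 in the 5-day controls, a difference of -0.76 (SE 0.57). In both, knockdown 2 was the low array and the other knockdowns lay within or close to the control range. Pold2 read 8.21, 6.24 and 8.26 in the 5-day knockdowns against 7.59, 8.47 and 8.58 in the 5-day controls, a difference of -0.64 (SE 0.56). Chaf1b read 7.68, 6.01 and 7.48 in the 5-day knockdowns against 7.37, 7.67 and 7.99 in the 5-day controls, a difference of -0.62 (SE 0.44). Dut read 10.11, 9.42 and 10.13 in the 5-day knockdowns against 10.03, 10.55 and 10.57 in the 5-day controls, a difference of -0.50 (SE 0.26). Without knockdown 2 the 5 values were -0.23 for Rfc3, -0.056 for Tk1, 0.023 for Pold2, -0.10 for Chaf1b and -0.26 for Dut. On the other side stood Tyms with 0.38 (SE 0.81), Pole2 with 0.22, Fen1 with 0.20, Rfc4 with 0.12 and Pold1 with 0.12, which were 0.035, -0.063, 0.080, -0.17 and -0.12 without knockdown 2.

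The median of the 41 genes at 5 days was -0.091 without knockdown 2, -0.024 without control 3 and -0.31 without control 1. With the scanner as a block it was 0.087, where control 1 is the lone control on the knockdowns' scanner, so the direction turned. It turns by construction when the groups are taken from the description field (0.17). Of the markers, 8 of 11 mitosis genes were lower (median -0.22), 7 of 8 of intermediate progenitors and newborn neurons (median -0.43) and 5 of 9 of radial glia (median -0.018), while 9 of 10 of microglia (median 0.31) and 7 of 9 of endothelium and pericytes (median 0.46) were higher, none of them past the threshold. Of the 47 other replication genes 32 were lower (median -0.074). E2f1, the S phase transcription factor, had the largest difference among them with -0.75, and Hells (-0.18), the fork protection gene Tipin (-0.24) and the nuclease gene Dna2 (-0.15) were lower without overlap.

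**Figure D4:**
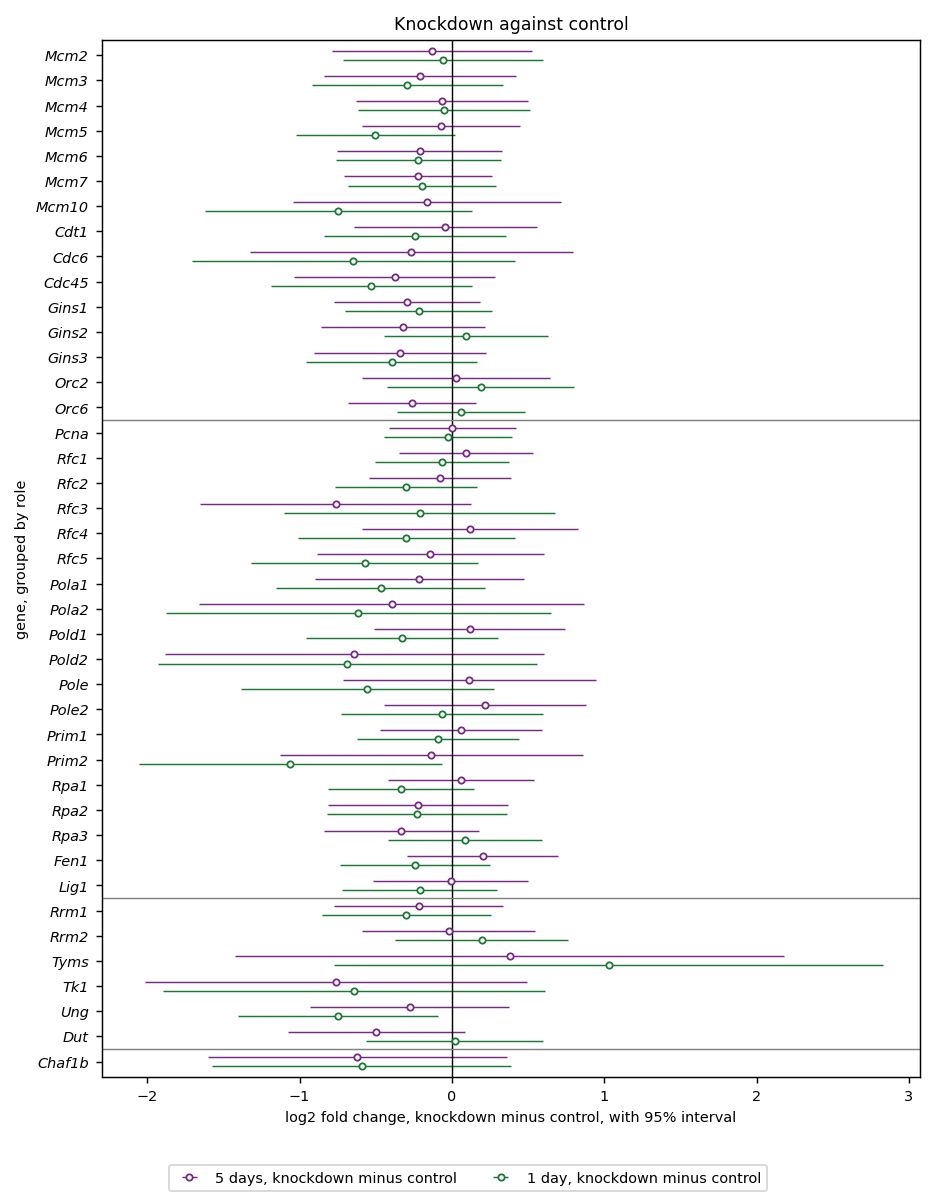
Log2 fold change of each replication gene between knockdown and control at 5 days (purple) and at 1 day (green), with 95% intervals of the limma fit on quantile normalized values. No gene passed the threshold; 30 of 41 points at 5 days and 34 of 41 at 1 day lie left of 0, with medians of -0.17 and -0.24, and with the scanner as a block the 5-day median is 0.087.

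One array weighed on the 5-day values in a way that depended on the probe set. Knockdown 2, the one with the high 3′ to 5′ ratio, was the lowest of the 6 arrays of 5 days for 40 of the 78 kept probe sets of these genes (51.3%), against 34.5% of all kept probe sets, and the highest for 10 (12.8%), against 36.0%. Probe sets of the same gene disagreed there. Against the median of the other 5 arrays of 5 days, those of Mcm5 ran from -2.14 to 0.23, those of Mcm2 from -1.94 to 0.20, those of Pold1 from -1.57 to 0.54, those of Fen1 from -1.29 to 0.44 and those of Rpa2 from -2.11 to -0.80. In Mcm2, Mcm5, Pold1 and Fen1 the brightest probe set was the highest of the gene's kept ones in this array. With all kept probe sets of a gene averaged, the 5-day median of the knockdown effect was -0.24, and Pold1, Fen1 and Rfc4 stood at -0.24, -0.034 and -0.11. Where on the transcript each probe set lies was not used here.

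**Figure D5:**
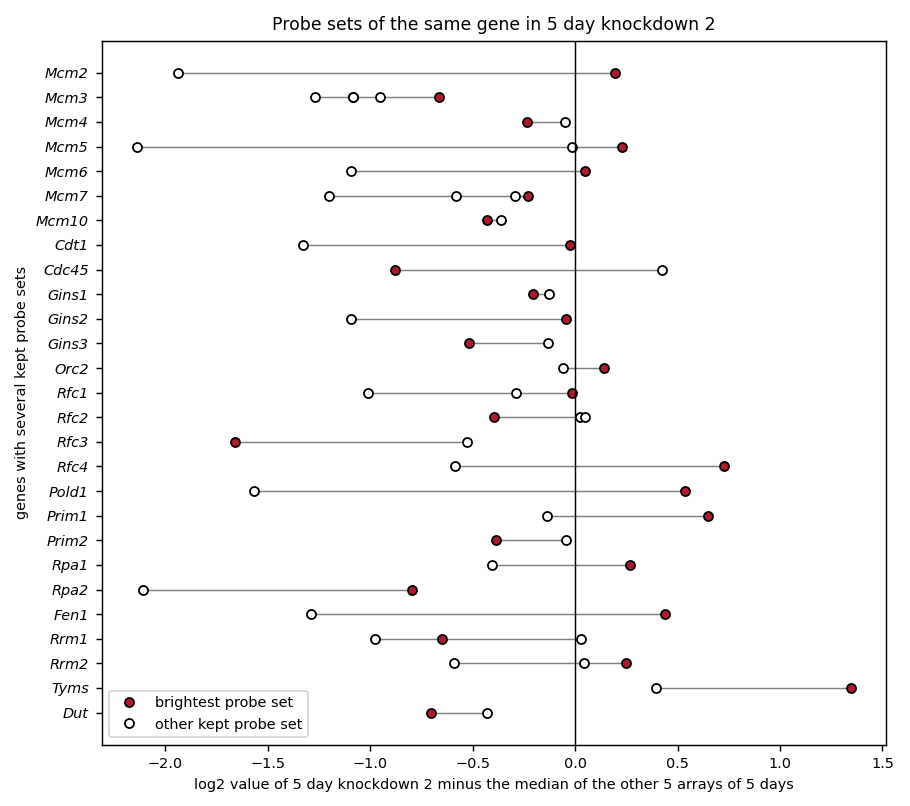
Deviation of the kept probe sets of each replication gene with several of them in 5-day knockdown 2, as the log2 difference from the median of the other 5 arrays of 5 days after quantile normalization; red points are the brightest probe set of a gene and open points the others. Within Mcm2, Mcm5 and Pold1 the points span more than 2 log2 units, from -1.94 to 0.20, from -2.14 to 0.23 and from -1.57 to 0.54.

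Between knockdown and control at 1 day, 0 of 41 replication genes passed the limma test (background 0%). An unadjusted limma p below 0.05 was found for 2 of the 41, both lower. Of all 12263 genes 30 were lower and 16 higher at that level. Lower in the knockdowns were 34 of 41, with a median of -0.24, beside -0.17 over all genes, of which 67.3% were lower. So 28 of 41 lay below the median of all genes. By role, 12 of 15 origin genes (median -0.22), 18 of 19 polymerase and fork genes (median -0.30), 3 of 6 nucleotide genes (median -0.14) and Chaf1b were lower. Without overlap lower were 4 genes (background 0.933%). Ung read 9.65, 9.15 and 9.76 in the 1-day knockdowns against 10.13, 9.97 and 10.71 in the 1-day controls, a difference of -0.75 (SE 0.30, limma unadjusted p = 0.0287, adjusted p = 0.832). Mcm5 read 10.01, 9.78 and 10.16 in the 1-day knockdowns against 10.27, 10.42 and 10.78 in the 1-day controls, a difference of -0.50 (SE 0.24). With the hybridisation control set as a block the differences were -0.64 for Ung and -0.48 for Mcm5. Rpa1 read 10.52, 10.24 and 10.27 in the 1-day knockdowns against 10.56, 10.60 and 10.87 in the 1-day controls, a difference of -0.33 (SE 0.22). Rfc2 read 10.32, 10.37 and 10.55 in the 1-day knockdowns against 10.65, 10.55 and 10.94 in the 1-day controls, a difference of -0.30 (SE 0.21). With only the arrays of weak hybridisation controls, which hold 1 knockdown, Ung, Mcm5, Rpa1 and Rfc2 had -0.77, -0.51, -0.19 and -0.48. With only those of strong ones, which hold 1 control, they had -0.51, -0.45, -0.35 and -0.091.

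Other 1-day differences were set beside the array sets. Prim2 read 9.08, 7.24 and 7.83 in the 1-day knockdowns against 9.24, 8.48 and 9.62 in the 1-day controls, a difference of -1.06 (SE 0.45, limma unadjusted p = 0.0386), the one other gene with an unadjusted p below 0.05. Tyms read 7.22, 9.96 and 9.77 in the 1-day knockdowns against 6.91, 9.41 and 7.55 in the 1-day controls, a difference of 1.03 (SE 0.81). In both, control 2 lay with knockdowns 2 and 3, on the low side for Prim2 and on the high side for Tyms. With the set as a block Prim2 had -0.65 and Tyms 0.22. Mcm10 read 8.45, 7.26 and 7.30 in the 1-day knockdowns against 8.48, 7.93 and 8.85 in the 1-day controls, a difference of -0.75, and -0.43 with the block. Pold2 read 8.98, 7.92 and 8.20 in the 1-day knockdowns against 8.99, 8.52 and 9.65 in the 1-day controls, a difference of -0.69, and -0.40 with the block. Cdc6 read 8.79, 7.38 and 7.34 in the 1-day knockdowns against 8.58, 7.93 and 8.94 in the 1-day controls, a difference of -0.65, and -0.27 with the block. On the higher side after Tyms came Rrm2 with 0.19, Orc2 with 0.19, Gins2 with 0.091 and Rpa3 with 0.087, against 0.039, -0.033, -0.053 and 0.16 with the block. Of the 78 kept probe sets of the replication genes, 34 were lower without overlap in the 3 arrays with strong hybridisation controls than in the 3 with weak ones (43.6%, against 46.4% of all kept probe sets) and 13 were higher (16.7%, against 28.8%).

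The median of the 41 genes at 1 day was -0.24 with the set as a block, and ran from -0.34 to -0.14 with 1 array left out, and the value nearest 0 was that without control 3. All 10 microglia markers were lower in the knockdowns (median -1.17), with a summed level of 1997, 410 and 388 in the 1-day knockdowns against 3342, 468 and 3270 in the 1-day controls. The low sums were those of the 3 arrays with strong hybridisation controls, control 2 among them. Of 11 mitosis genes 10 were lower (median -0.12), and no gene of either list was past the threshold. Of the 47 other replication genes 32 were lower (median -0.19), led by Chtf18 (-1.01), E2f2 (-0.96) and E2f1 (-0.71), and 0 passed.

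The knockdown effect was not shown to differ between 5 days and 1 day for any replication gene by limma (background 0%). An unadjusted limma p below 0.05 was found for 0 of the 41, beside 5 lower and 12 higher of all 12263 genes. The difference of the effects had a median of 0.081, beside 0.13 over all genes, and ran from -0.65 for Tyms to 0.93 for Prim2 (limma unadjusted p = 0.174, the smallest of the 41). For Mcm5 it was 0.43 (95% interval -0.31 to 1.17), since the knockdown difference was -0.072 at 5 days beside -0.50 at 1 day. For Fen1 it was 0.44 (95% interval -0.25 to 1.14), from 0.20 at 5 days and -0.24 at 1 day. Both intervals hold 0.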

How the data were processed

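Expression was measured on 12 Mouse430_2 arrays. The authors deposited 1 intensity per probe set and array on a linear scale. The sources used here do not give how probes were summarised, corrected for background and scaled. Array columns were not at equal levels, so they were quantile normalized with limma 3.58.1 in R 4.3.3, 16 was added and log2 was taken. Without the 64 control probe sets, the 60% of probe sets with the highest mean were kept (27022). The instrument files, deposited with other settings as text, gave chip type, lot, station and scanner, per the file headers.

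Groups follow titles and time labels. All 12 arrays entered 1 limma fit of 4 group means with 8 residual degrees of freedom, with two-sided tests, Benjamini-Hochberg adjustment over all kept probe sets and a threshold of 0.05. Each gene is its brightest kept probe set; some are shared-sequence probe sets (suffix s or x) that can read related transcripts. Every member is accounted for, with values per array for those past the threshold, without overlap or of the largest change. The members and gene lists were chosen with earlier results of these data known. Alternatives were the normalization, pseudocount, filter, probe set rule, blocks and leaving out each array. The fit was run on simulated independent normal values with none of the array differences described above. That run cannot show how the fit behaves with them. Promoters are RefSeq, GRCm38.p6.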

Additional observations from a re-analysis of the deposited data

How the results depend on the processing

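The 3 arrays of a group limit the precision, and Orc1, below the filter on low signal, has no value. In the knockdown comparisons and their difference, 0 replication genes passed under every alternative that was run, while the 5-day median turned with the scanner as a block (0.087, and 0.065 relative to all genes) and with the groups of the description field (0.17 and 0.18; the difference of the effects then had 0.43 and 0.25). The scanner, station, array set, chip lot and 3′ to 5′ ratio were not tested as causes.

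Between time points, all probe sets past the threshold in either direction numbered 1616 in the knockdowns and 886 in the controls, of 27022 kept. Without normalization between arrays they were 13508 and 13122, with median scaling 10322 and 9249, without the filter on low signal 3026 and 1702 and with probe sets averaged per gene 918 and 528. With only the strong-control 1-day arrays they were 12415 in the knockdowns and 6753 in the controls, with only the weak-control ones 217 in the knockdowns, and without the strong set and 5-day knockdown 2, 333 and 3934. With 1 array left out they ran from 341 to 7727 and from 247 to 1520. The replication genes past the threshold as lower, 8 in each arm, were 0 and 1 without normalization, 0 and 0 with median scaling, 5 and 16 by the description field and 0 and 19 without the strong set and 5-day knockdown 2. They were 20 and 0 in the knockdowns with only the strong or only the weak set (and 1 was higher with the strong set), and ran from 0 to 19 and from 1 to 12 with 1 array left out. The median of these genes was 0.36 in both arms without normalization, 0.22 and 0.21 with median scaling, -0.98 in the knockdowns with only the weak set and -1.06 in the controls by the description field. Relative to all genes it stayed below 0 under each alternative that was run, at -0.70 in the knockdowns without the strong set and 5-day knockdown 2 and from -1.16 to -0.78 in the controls with 1 array left out. With probe sets averaged per gene the 9 called genes split: Cdt1 (-1.35 and -1.42) and Lig1 passed in both arms, Mcm2 and Rrm1 in the knockdowns, Mcm5 and Pold1 in the controls, and Rpa2, Fen1 and Dut in neither.

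Of 41 genes, 28 in each arm turned to above 0 without normalization, and 25 in the knockdowns and 24 in the controls with median scaling. Those of them past the threshold on either scale follow. Without normalization the knockdowns had 0.20 for Mcm5, 0.59 for Mcm7, 0.046 for Cdt1, 0.61 for Gins1, 1.08 for Orc6, 0.76 for Pcna, 0.87 for Rfc1, 1.16 for Rfc2, 0.14 for Pold1, 0.55 for Prim1, 1.21 for Rpa1, 0.22 for Rpa2, 0.28 for Fen1, 0.59 for Lig1, 0.37 for Rrm1 and 0.76 for Ung. The controls had 0.68 for Mcm7, 0.82 for Gins1, 1.10 for Gins2, 1.49 for Orc6, 0.90 for Pcna, 0.78 for Rfc1, 1.01 for Rfc2, 0.70 for Rfc5, 0.92 for Rpa1, 0.27 for Rpa2, 0.46 for Lig1 and 0.34 for Rrm1. With median scaling the knockdowns had 0.054 for Mcm5, 0.93 for Orc6, 1.01 for Rfc2, 1.07 for Rpa1, 0.081 for Rpa2, 0.14 for Fen1 and 0.23 for Rrm1. The controls had 0.95 for Gins2, 1.33 for Orc6, 0.11 for Rpa2, 0.31 for Lig1 and 0.19 for Rrm1. The median of all genes was 0.97 to 1.19 higher at 5 days under these scalings.

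Whether the replicate numbers of the titles pair the samples was not settled. Knockdown and control of the same number had deviations that correlated at 0.92, 0.90 and -0.42 at 1 day and -0.13, -0.016 and 0.096 at 5 days. At 1 day the positive correlations were those between arrays of the same hybridisation control set, also across numbers (0.87 for knockdown 3 with control 2). They therefore cannot show whether samples were paired. The replicate block left the medians as they were (-0.17 at 5 days, -0.24 at 1 day), called 0 replication genes in the knockdown comparisons and called 11 in the knockdowns and 9 in the controls between time points. The pseudocount of 64 gave 10 in each. The restrictions to 1 array set, the fit without the strong set and 5-day knockdown 2 and the groups of the description field were chosen after seeing the data.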
